A study of Sus scrofa with 8 samples.

Results

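The nuclear genes of oxidative phosphorylation were followed in lung tissue of 2 pig breeds kept at 2 altitudes. The members were the array probes whose gene symbol was SDHA, SDHB, SDHC, SDHD or CYCS or began with NDUF, UQCR, COX4, COX5, COX6, COX7, COX8 or ATP5, and whose signal rose well above background on 1 array or more. Symbols came from the RefSeq accession of the array design or from the supplementary tables of the study, and 5678 of the 43603 probes of the array had one. Of these, 30 carried a symbol of the rule, and 29 of the 30 passed the background rule. These 29 members stood for 22 genes, of 3964 genes with a symbol on the array. The probe left out was a COX8H probe that was not above background on any array. No probe with a symbol stood for CYCS, SDHA, SDHC, any COX4 or COX5 gene, any UQCR gene other than UQCR10, or a gene of mitochondrial DNA, so each complex is seen here through some of its subunits.

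Tibetan pigs (TH) and Duroc pigs (DL) stayed where their populations were raised, at 3500 m and at 40 m. Tibetan pigs of the highland population were moved to 40 m (TL) and Duroc pigs of the lowland population to 3500 m (DH) at 1 month of age. All pigs were unrelated females of 6 months fed ad libitum, with altitude as the treatment, and each group held 2 arrays, each with the RNA of 1 pig per the methods. Total RNA of whole lung was labeled with Cy3 and hybridized to 8 1-color Agilent arrays. The TH and DL arrays lay on 1 slide and the DH and TL arrays on the other. The interaction of breed and altitude therefore cannot be told apart from the slide, nor from having been moved at 1 month. TH minus TL and DH minus DL each compare arrays of different slides, and moved with unmoved pigs. Neither difference can be told apart from the slide or the move. Each breed and each altitude was on both slides.

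Oxidative phosphorylation takes place in the inner membrane of mitochondria. Complex I oxidizes NADH and complex II oxidizes succinate, complex III passes the electrons on to cytochrome c, and complex IV hands them to oxygen. Complexes I, III and IV pump protons, and complex V, the ATP synthase, lets them flow back to make ATP. Most subunits are encoded in the nucleus, and several of complex IV have muscle and non-muscle isoforms. In whole lung, a change of RNA in every cell cannot be told apart from a change in the share of cells that are rich in mitochondria.

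All values are the deposited log2 values, in which a difference of 1 is a doubling, and levels are compared only within a probe. Arrays of 1 group correlated at r from 0.981 to 0.994 over the tested probes, arrays of TH, DH and DL at 0.961 to 0.967 between groups, and TL arrays with the others at 0.918 to 0.941. The TL arrays also had the highest median raw signal, 324 and 333.5 against 207.5 to 230 on the other arrays. Over the members, the median SD between the 2 arrays of a group was 0.021 on the log2 scale. Of the 29 members, 27 were well above background on all 8 arrays, with group means from 9.54 to 17.57, and 25 had a mean log2 value above 13. Of the other 2, COX8H was above background on 1 TL array and a second ATP5L probe on both TL arrays only. These 2 dim members were tested because of TL arrays alone and have no measured difference between groups, so counts are also given over the 27 others. The marker probes of alveolar type II cells, for SFTPA1, SFTPB, SFTPC and SFTPD, had a summed log2 level of 19.69 and 19.71 (TH), 19.96 and 20.03 (TL), 20.03 and 20.11 (DH) and 19.92 and 19.94 (DL), lower at high altitude in Tibetan and higher in Duroc pigs. Of the 7 markers of that list 4 had a probe with a symbol. Of the 5 probes only 1, for SFTPD, was higher in TH than in TL, at 14.82 against 14.04. All 5 were higher in DH than in DL. The part of alveolar type II cells in the results was not tested.

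The members were higher at high altitude than at low altitude in most cases, by small amounts. The altitude effect, the mean of TH minus TL and DH minus DL, was above 0 in 25 of 29 members and 24 of the 27, with a median of 0.27 over either set against 0.01 over all 34406 tested probes and 0.02 over the 5222 tested probes with a mean log2 value above 13. With limma and Benjamini-Hochberg adjustment over all tested probes, 8 members passed an FDR below 0.0001 as higher at high altitude, or 27.6% of the members, where 14.0% of all tested probes did. None passed as lower, where 12.2% of all tested probes did. At an FDR below 0.05, 25 members, 24 of them among the 27, were higher, against 36.6% of the tested probes, and 1 member, SDHB, was lower, against 34.2%. The 4 arrays at high altitude all lay above the 4 at low altitude for 14 members, or 48.3%, where 11.9% of all tested probes and 21.6% of those above a log2 value of 13 did so.

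**Figure D1:**
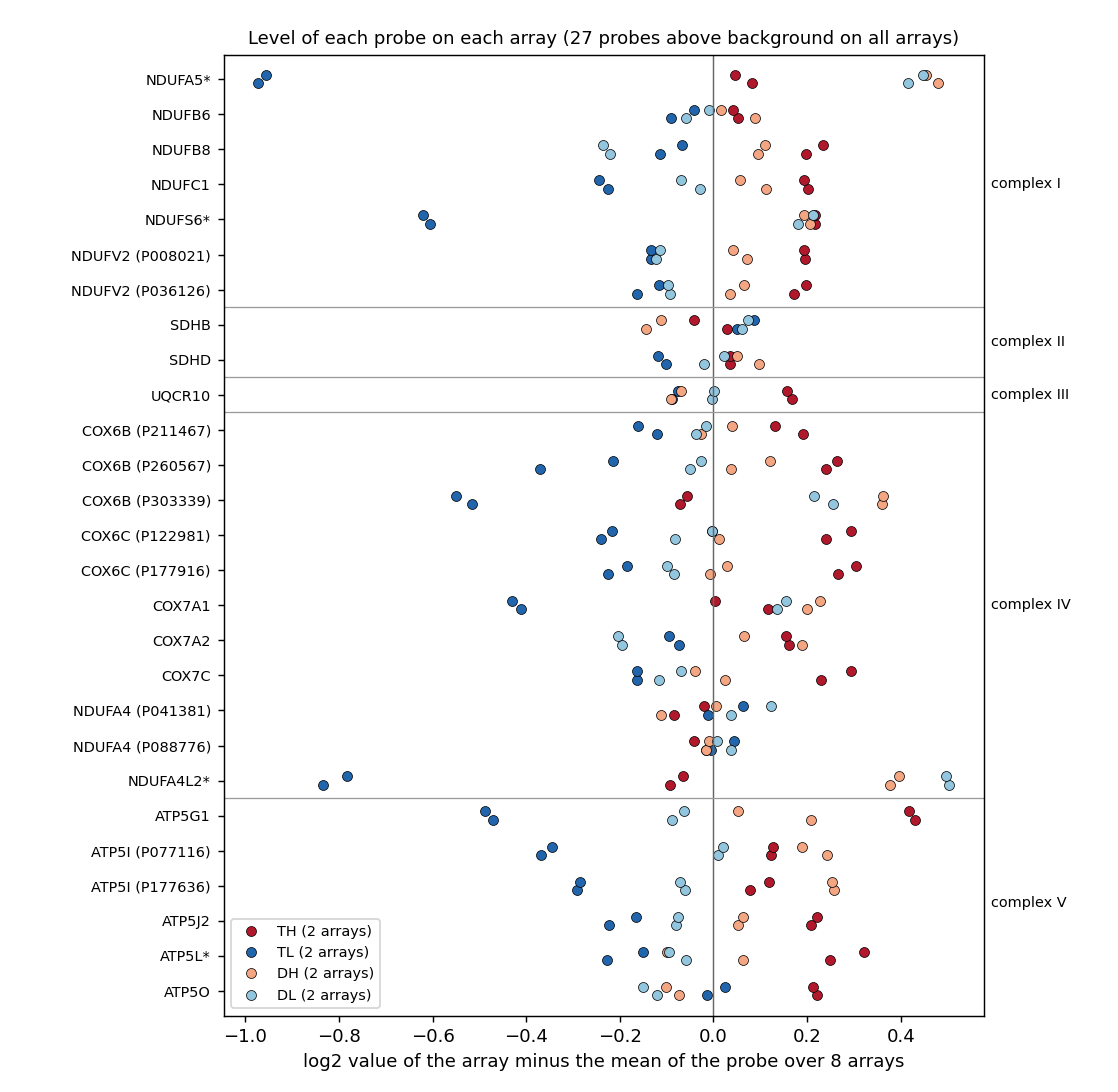
Level of each of the 27 probes above background on all arrays, as the log2 value of each array minus the mean of the probe over 8 arrays (x axis), by complex (y axis). Each point is 1 array, colored by group, and an asterisk marks a probe named only through a table of the study. The TL points lie below those of the other 3 groups for 19 members, where they do so for 36.9% of all tested probes. They do not for NDUFB6, NDUFB8, SDHB, UQCR10, COX7A2, ATP5O and the 2 NDUFA4 probes.

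The difference between altitudes had a larger median in Tibetan than in Duroc pigs, over the members and over all tested probes alike. TH minus TL had a median of 0.39 over the members, against 0.11 over all tested probes and 0.06 over those with a mean log2 value above 13. It passed an FDR below 0.0001 as higher for 11 members, or 37.9%, where 20.5% of all tested probes did. At an FDR below 0.05 there were 24 higher members, all of them among the 27, where 42.3% of tested probes were higher. The 1 called lower, where 33.7% of tested probes were, was the dim ATP5L probe, which is no measured difference, since TL was the group through which it was tested. DH minus DL had a median of 0.09 over the members, against -0.01 over all tested probes and 0.01 over those with a mean log2 value above 13. None of the members passed an FDR below 0.0001 in limma, where 9.95% of tested probes did. At an unadjusted p under 0.05 the count was 15, or 51.7% of the members, where 64.0% of tested probes passed. At an FDR below 0.05, 12 members, 11 of them among the 27, were higher in DH than in DL, where 29.8% of tested probes were, and SDHB, UQCR10 and NDUFA4L2 were lower, where 30.4% of tested probes were. TL was the lowest group for 21 members and TH the highest for 16, and the shares of all tested probes are not given here.

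**Figure D2:**
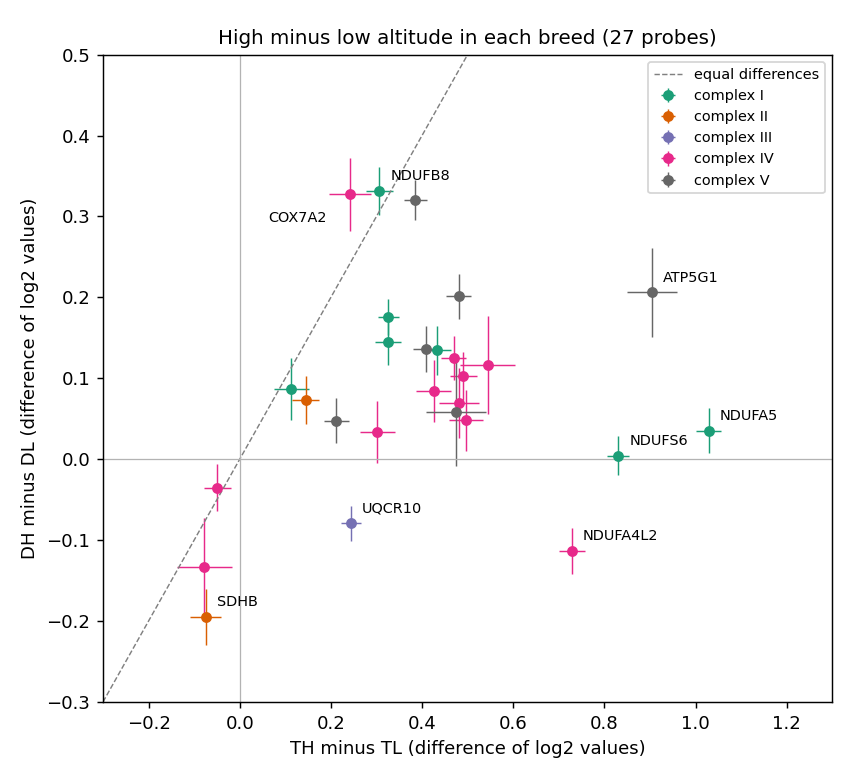
High minus low altitude as TH minus TL (x axis) and DH minus DL (y axis), both as differences of log2 values, for 27 probes colored by complex, with bars of 1 standard error. Most probes lie to the right of the dashed line of equal differences, NDUFA5 and NDUFS6 lie near 0 on the Duroc axis, and NDUFB8 and COX7A2 lie near or above the line.

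Since each slide held 1 group from high and 1 from low altitude, the members can also be compared within a slide, where the breeds differ as well. TH minus DL, on the first slide, was above 0 in 22 of 29 members and 20 of the 27, where 49.5% of all tested probes were. Its median was 0.25 over the 29 and 0.19 over the 27, against -0.01 over all tested probes. DH minus TL, on the second slide, was above 0 in 23 members, all among the 27, where 54.6% of all tested probes were. Its median was 0.19 over the 29, against 0.09 over all tested probes. Both differences were above 0 for 19 members, and the share of all tested probes is not given here.

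Complex I was represented by 7 probes for 6 genes, and all 7 were higher at high altitude at an FDR below 0.05, 4 of them below 0.0001. NDUFB8, an accessory subunit of the membrane arm, read 15.61 and 15.64 in TH, 15.29 and 15.34 in TL, 15.50 and 15.52 in DH, and 15.19 and 15.17 in DL. Its high and low arrays did not overlap in either breed, and the values of both breeds were close, with TH minus TL at 0.31 ± 0.03 (SE) and DH minus DL at 0.33 ± 0.03. The altitude effect of NDUFB8 was 0.32 ± 0.02 (SE; limma, adjusted p = 8.85e-05) and its interaction -0.02 ± 0.04 (limma, adjusted p = 0.612), which was 0.62 when arrays were scaled to their 75th percentile. That scaling moved the median interaction of the probes with a mean log2 value above 13 to 0.63, and NDUFB8 lay at -0.01 against it. NDUFV2, a core subunit that carries an iron-sulfur cluster next to the NADH site, was read by 2 probes that gave nearly the same difference. On probe A_72_P008021 the log2 values were 15.03 on both TH arrays, 14.70 on both TL arrays, 14.91 and 14.88 in DH, and 14.71 and 14.72 in DL. The altitude effect was 0.25 ± 0.02 there (limma, adjusted p = 8.59e-05) and 0.23 ± 0.02 on probe A_72_P036126 (limma, adjusted p = 0.00025).

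The membrane arm subunit NDUFC1 read 14.37 and 14.36 in TH, 13.94 and 13.92 in TL, 14.28 and 14.22 in DH, and 14.14 and 14.10 in DL, so that all groups were apart and TL was lowest. Its altitude effect was 0.28 ± 0.02 (limma, adjusted p = 0.000167). NDUFB6, of the same arm, had the smallest altitude effect of the complex, 0.10 ± 0.03 (limma, adjusted p = 0.0218), with levels between 14.39 and 14.57 on all arrays.

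NDUFA5 and NDUFS6, accessory subunits of the matrix arm, were named only through tables that the study ordered or chose by test results on these samples, so their calls are no independent evidence of a direction. NDUFA5 read 10.59 and 10.55 in TH, 9.54 and 9.55 in TL, 10.99 and 10.96 in DH, and 10.92 and 10.96 in DL. The Duroc groups lay together at the top and TL about 1 log2 unit under TH, with TH minus TL at 1.03 ± 0.03 and DH minus DL at 0.04 ± 0.03. NDUFS6 read 16.04 on both TH arrays, 15.21 and 15.20 in TL, 16.02 and 16.01 in DH, and 16.00 and 16.03 in DL. Here TH, DH and DL lay close together and TL alone was lower, with TH minus TL at 0.83 ± 0.02 and DH minus DL at 0.00 ± 0.02.

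Of complex II, 1 member was lower and 1 higher at high altitude at an FDR below 0.05. SDHB, the iron-sulfur subunit of succinate dehydrogenase, read 14.89 and 14.82 in TH, 14.91 and 14.94 in TL, 14.71 and 14.75 in DH, and 14.92 and 14.93 in DL. All 4 high arrays lay below all 4 low arrays, and the altitude effect was -0.13 ± 0.02 (limma, adjusted p = 0.00496). Scaled to the 75th percentile, that effect was 0.26, which was still -0.12 against the median of the probes with a mean log2 value above 13. SDHD, a membrane anchor of the same complex, was higher at high altitude by 0.11 ± 0.02 (limma, adjusted p = 0.00629), with 15.42 on both TH arrays, 15.29 and 15.27 in TL, 15.49 and 15.44 in DH, and 15.37 and 15.41 in DL.

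Complex III was seen through UQCR10, a small accessory subunit, and TH stood apart from the other groups. Its log2 values were 16.40 and 16.39 in TH, 16.14 and 16.15 in TL, 16.14 and 16.16 in DH, and 16.23 on both DL arrays. TH minus TL was 0.24 ± 0.02 while DH minus DL was -0.08 ± 0.02, and the interaction was 0.32 ± 0.03 (limma, adjusted p = 0.000391).

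Complex IV had 12 probes for 8 genes, of which 9 probes were higher at high altitude at an FDR below 0.05 and 2 below 0.0001. The 3 others were both probes of NDUFA4 and the dim probe of COX8H. COX6C was read by 2 probes with altitude effects of 0.27 ± 0.03 and 0.30 ± 0.02. On probe A_72_P177916 COX6C read 17.27 and 17.31 in TH, 16.78 and 16.82 in TL, 17.00 and 17.03 in DH, and 16.92 and 16.91 in DL. TH was highest and TL lowest, and the DH arrays lay just above the DL arrays. COX7C, another small nuclear subunit, was higher at high altitude by 0.26 ± 0.03 (limma, adjusted p = 0.000623), with 16.38 and 16.45 in TH, 15.99 on both TL arrays, 16.18 and 16.11 in DH, and 16.04 and 16.09 in DL.

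The 2 isoforms of subunit 7a had the groups in different orders. COX7A2, the isoform of non-muscle tissues, read 15.80 and 15.79 in TH, 15.56 and 15.54 in TL, 15.83 and 15.70 in DH, and 15.44 and 15.43 in DL, which put both high groups above both low groups. COX7A1, the isoform of heart and skeletal muscle, read 14.38 and 14.27 in TH, 13.85 and 13.83 in TL, 14.46 and 14.49 in DH, and 14.40 and 14.42 in DL, so that TL alone was low. The altitude effect was 0.28 for each, with SE of 0.03 (limma, adjusted p = 0.000753 for COX7A2 and 0.000729 for COX7A1). The interaction was -0.09 ± 0.06 for COX7A2 (limma, adjusted p = 0.282), and 0.41 ± 0.06 for COX7A1 (limma, adjusted p = 0.0022). With 75th percentile scaling the interaction of COX7A2 was 0.54, which was -0.09 against the median of the probes with a mean log2 value above 13. The difference between the isoforms was not tested.

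COX6B, a subunit on the outer face of the complex, was read by 3 probes that did not give 1 picture. All 3 were higher at high altitude, by 0.17 ± 0.03, 0.33 ± 0.04 and 0.30 ± 0.02. For breed they parted: probe A_72_P303339 was lower in Tibetan than in Duroc pigs by -0.60 ± 0.02 (limma, adjusted p = 8.79e-06), with 13.07 and 13.09 in TH, 12.63 and 12.59 in TL, 13.51 on both DH arrays, and 13.40 and 13.36 in DL. The breed effect of A_72_P211467 was 0.02 ± 0.03 and that of A_72_P260567 was -0.04 ± 0.04, neither past an FDR of 0.05.

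NDUFA4, once counted with complex I and now known as a subunit of complex IV, stayed within a narrow range. On probe A_72_P041381 it read 16.35 and 16.42 in TH, 16.43 and 16.50 in TL, 16.33 and 16.44 in DH, and 16.48 and 16.56 in DL. The high arrays lay below the low arrays within each breed and overlapped with those of the other breed, and the altitude effect was -0.11 ± 0.04 (limma, adjusted p = 0.0769). On probe A_72_P088776 it was -0.04 ± 0.02 (limma, adjusted p = 0.125), although its 4 low arrays lay above its 4 high arrays, at 15.71 to 15.76 against 15.68 to 15.71. With 75th percentile scaling the effects were 0.35 and 0.40, which were -0.033 and 0.02 against the median of the probes with a mean log2 value above 13.

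NDUFA4L2 is a paralog of NDUFA4 known as a gene that low oxygen induces. It was named only through tables chosen on these samples. It read 13.76 and 13.79 in TH, 13.02 and 13.07 in TL, 14.23 and 14.25 in DH, and 14.36 and 14.35 in DL. Both Duroc groups lay above both Tibetan groups, TH lay above TL, and DH lay below DL. TH minus TL was 0.73 ± 0.03 and DH minus DL was -0.11 ± 0.03 (limma, adjusted p = 1.05e-05 and 0.0206). COX8H, a heart-type subunit, was above background on 1 TL array only and has no level elsewhere beyond a bound of about 5.25 to 5.69 on the log2 scale, above its TL mean of 4.70, so that no fold can be given.

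Complex V had 7 probes for 5 genes, and all but the dim ATP5L probe, which has no measured altitude effect, were above background on all arrays and higher at high altitude at an FDR below 0.05. ATP5G1, which encodes the c subunit of the rotor ring, had the largest altitude effect among members named by accession, 0.56 ± 0.04 (limma, adjusted p = 0.000119). It read 16.22 and 16.21 in TH, 15.32 and 15.30 in TL, 16.00 and 15.84 in DH, and 15.70 and 15.73 in DL. Both breeds were higher at high altitude without overlap, by 0.90 ± 0.05 in Tibetan and 0.21 ± 0.05 in Duroc pigs, and the interaction was 0.70 ± 0.08 (limma, adjusted p = 0.000682).

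ATP5I and ATP5L encode subunits e and g, which hold ATP synthase dimers together. The 2 probes of ATP5I were higher at high altitude by 0.34 ± 0.02 and 0.35 ± 0.02 (limma, adjusted p = 6.03e-05 and 3.42e-05). On probe A_72_P177636 ATP5I read 17.05 and 17.09 in TH, 16.68 on both TL arrays, 17.23 and 17.22 in DH, and 16.91 and 16.90 in DL, higher at high altitude in both breeds by similar amounts, with TH minus TL at 0.39 ± 0.02 and DH minus DL at 0.32 ± 0.02. ATP5J2 and ATP5O gave smaller values than ATP5I. ATP5J2, the f subunit of the membrane part, was higher by 0.27 ± 0.02 (limma, adjusted p = 0.00014). ATP5O, the link between the stalk and the catalytic head, was higher by 0.13 ± 0.02 (limma, adjusted p = 0.00248), with 13.97 and 13.96 in TH, 13.74 and 13.78 in TL, 13.68 and 13.65 in DH, and 13.63 and 13.60 in DL.

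ATP5L was named only through the list of regulators of the study, at 2 probes, a bright and a dim one. The bright probe A_72_P237342 read 16.32 and 16.39 in TH, 15.84 and 15.92 in TL, 16.13 and 15.97 in DH, and 16.01 and 15.98 in DL, which put TH on top. The dim probe A_72_P200337 was well above background only in TL, where it read 5.72 and 5.48. Since TL was the group through which it was tested, its level against the bound for TH is no measured difference. For DH and DL the bound lay above the TL mean, so that no fold can be given. Its interaction of -2.86 rests on values in TH, DH and DL that were not well above background, 3.41 and 3.40 in DL among them, and was -1.88 with the raw signal and -0.17 with local background.

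**Figure D3:**
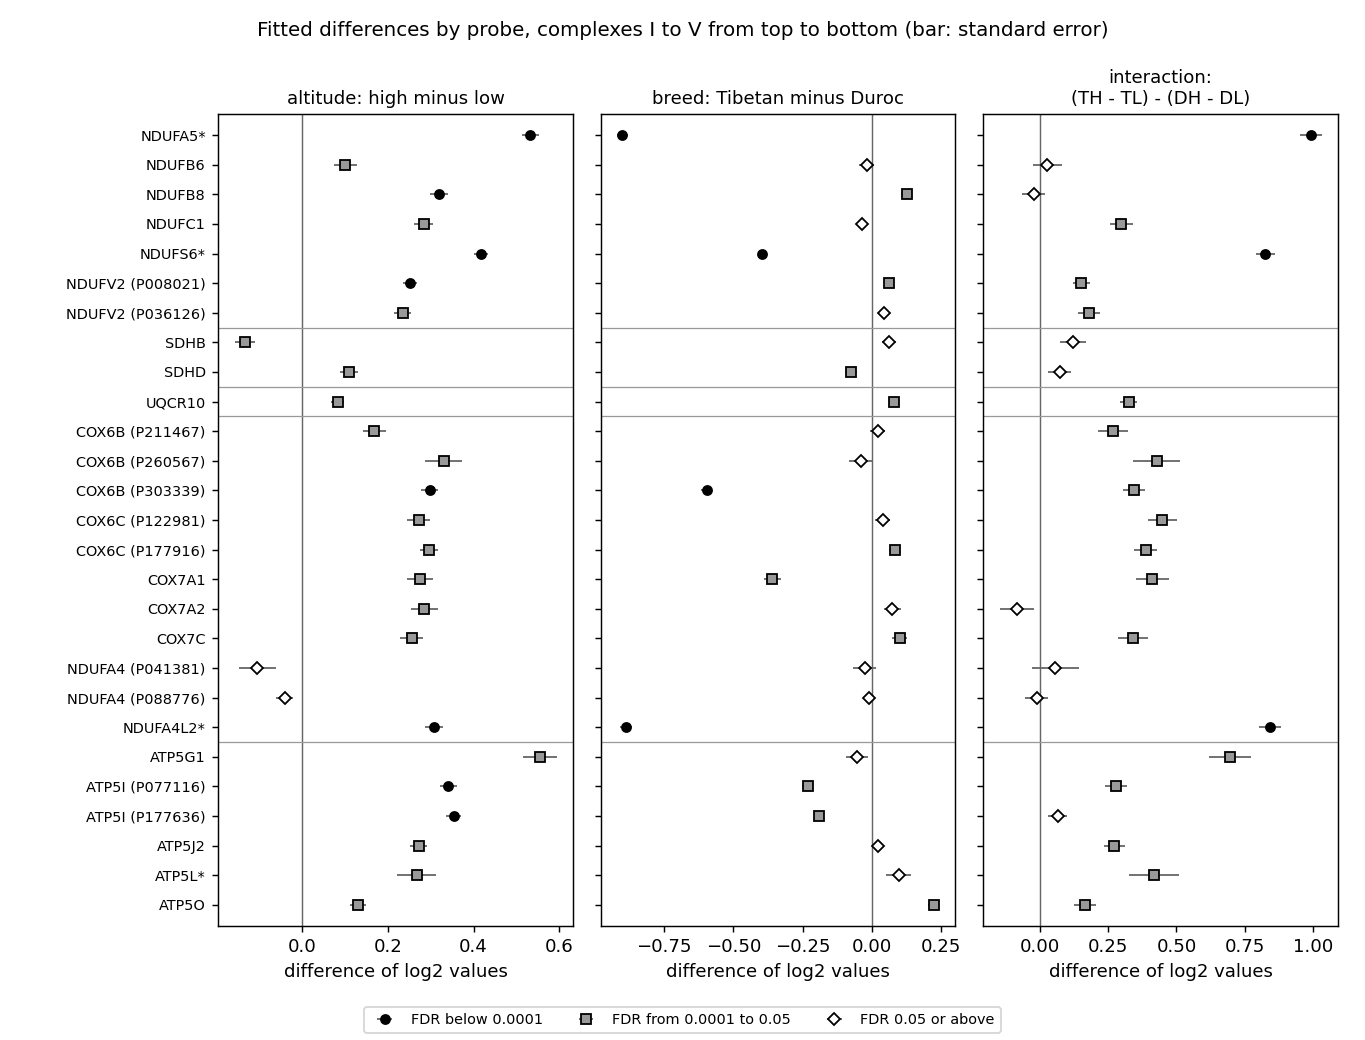
Altitude effect, breed effect and interaction (x axes, differences of log2 values) of the 27 probes above background on all arrays (y axis, complexes I to V from the top), with bars of 1 standard error. Filled circles passed an FDR below 0.0001 and grey squares an FDR below 0.05. Altitude effects lie right of 0 except for SDHB and NDUFA4, whereas breed effects lie on both sides, and the 4 below an FDR of 0.0001 are all negative.

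The breed effect, Tibetan minus Duroc, had no common direction over the members. Its median was 0.02, against -0.07 over all tested probes, and it was above 0 in 15 of 29 members, and the median was -0.0096 over the 27; with 75th percentile scaling the median was -0.33, against -0.36 for the probes with a mean log2 value above 13. NDUFA5, NDUFS6, NDUFA4L2 and 1 COX6B probe were lower in Tibetan pigs at an FDR below 0.0001, and 14.6% of all tested probes were. At an FDR below 0.05, 15 members differed between the breeds in either direction, or 51.7%, where 71.6% of all tested probes did. The effect was -0.90 ± 0.02 for NDUFA5 (limma, adjusted p = 3.23e-06), -0.89 ± 0.02 for NDUFA4L2 (limma, adjusted p = 3.63e-06) and -0.40 ± 0.02 for NDUFS6 (limma, adjusted p = 1.99e-05). These genes were named only through tables ordered or chosen by test results on these samples, so their breed calls are no independent evidence. Of the 24 members named by accession, 1 passed an FDR below 0.0001, the COX6B probe. Within high altitude TH minus DH was above 0 in 19 of 29 members and 49.1% of all tested probes, with medians of 0.11 and -0.009. Within low altitude TL minus DL was above 0 in 6 members, or 20.7%, and 40.4% of all tested probes. Its median of -0.11 over the members stood beside -0.21 over all tested probes and -0.10 over those with a mean log2 value above 13.

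The interaction, TH minus TL minus the same difference in Duroc, passed an FDR below 0.0001 as higher for 3 members, where 14.9% of tested probes did, and as lower for 1, where 13.5% did. These were NDUFA5 at 0.99 ± 0.04, NDUFS6 at 0.83 ± 0.03, NDUFA4L2 at 0.84 ± 0.04 and the dim ATP5L probe, whose value is no measured difference. All 4 were named through the tables of the study, and none of the 24 members named by accession passed. At an FDR below 0.05, 19 members were higher, or 65.5%, where 43.3% of all tested probes were. The median of 0.27 over the members stood beside 0.21 over all tested probes and 0.08 over those with a mean log2 value above 13. TL lay below all other arrays for 19 members, or 65.5%, where 36.9% of all tested probes did.

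The size of these shifts depended on the scaling of the arrays, more than their excess over other bright probes did. With 75th percentile scaling in place of the deposited values, the median altitude effect was 0.64 over the members, 0.07 over all tested probes and 0.38 over those with a mean log2 value above 13. Members exceeded the latter by 0.25 with either scaling. For TH minus TL, the members' median was 1.04 and that of all tested probes moved from 0.11 to 0.23, while the excess over bright probes was 0.32 with the deposited values and 0.35 with 75th percentile scaling.

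**Figure D4:**
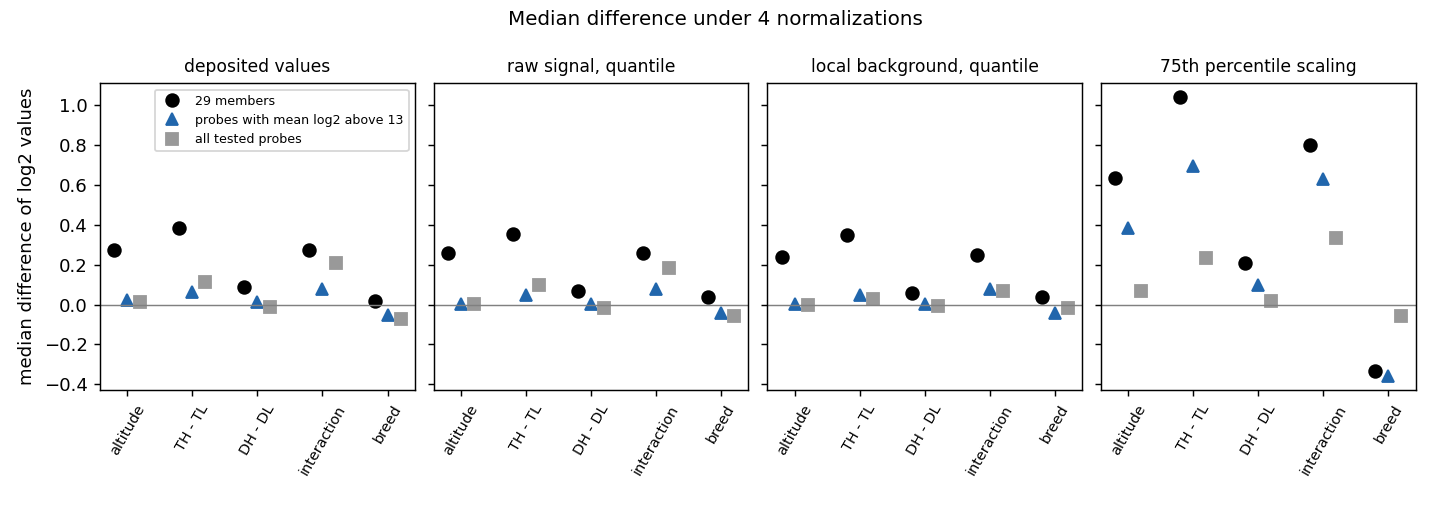
Median difference of log2 values (y axis) for 5 contrasts (x axis) under 4 normalizations, for the 29 members (circles), the 5222 tested probes with a mean log2 value above 13 (triangles) and all 34406 tested probes (squares). With 75th percentile scaling members and bright probes move together, and the members keep a median altitude effect of 0.64 against 0.38.

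Other nuclear genes of mitochondria were read from lists given outside the rule. Probes named only through tables of the study, some of which were ordered or chosen by test results on these samples, are pointed out. Of 19 probes for 10 genes of the citric acid cycle and pyruvate dehydrogenase, 7 were higher and 1 lower at high altitude at an FDR below 0.0001, with a median of 0.17. Among all tested probes 14.0% were called higher and 12.2% lower, and these shares stand beside each list below. The highest was a probe of IDH2, the NADP-linked isocitrate dehydrogenase of mitochondria, at 1.40 (limma, adjusted p = 3.52e-06), with means of 13.94 and 13.59 at high altitude (TH, DH) and 12.11 and 12.63 at low altitude (TL, DL). The other IDH2 probes were brighter, with TH means of 17.40 and 17.41, and gave 0.53 and 0.55. The lowest of the list was a probe of SUCLG1, a subunit of succinyl-CoA ligase, at -0.66, while a second SUCLG1 probe gave 0.15. On the lowest probe the breeds went opposite ways, with TH minus TL at -2.05 and DH minus DL at 0.74. Of the 19 probes 16 were named by accession, and the lowest SUCLG1 probe was not among them. Of 8 probes for 5 genes of mitochondrial biogenesis, 4 were higher and none lower, from ESRRG, an estrogen-related receptor, at 0.82 to a probe of TFAM, the packaging factor of mitochondrial DNA, at -0.39 (limma, adjusted p = 0.000614). Only 2 of the 8 were named by accession, and ESRRG and this TFAM probe were not among them. On this TFAM probe the breeds also went opposite ways, with TH minus TL at -1.34 and DH minus DL at 0.56. A second TFAM probe, the one named by accession, gave 0.47 (limma, adjusted p = 5.43e-05).

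Both assembly factors outside the rule were higher at high altitude. ATPAF1, for the head of ATP synthase and named only through a table of the study, was higher by 0.73 (limma, adjusted p = 5.27e-06). PET100, for complex IV and named by accession, was higher by 0.60 (limma, adjusted p = 2.12e-05). Of 12 probes for 9 carriers of the mitochondrial membranes, 4 were higher and none lower, where 14.0% and 12.2% of all tested probes were. The 12 probes ran from a probe of SLC25A6, an exchanger of ADP and ATP, at 0.87 to CKMT2, a mitochondrial creatine kinase, at -0.44 (limma, adjusted p = 0.339). A brighter SLC25A6 probe gave 0.22 (limma, adjusted p = 0.0015). UCP3, an uncoupling protein of muscle, had the lowest breed effect of that list, -2.46 (limma, adjusted p = 1.61e-06), with means of 9.57 and 9.55 in the Tibetan groups and 12.48 (DH) and 11.57 (DL) in the Duroc groups. Of 6 probes for 3 hypoxia-linked genes, NDUFA4L2 among them, 2 were higher and 1 lower, against the same 14.0% and 12.2%. Only 1 of the 6, a PDK1 probe, was named by accession. PDK1, which shuts pyruvate out of the citric acid cycle, was higher by 1.007 at its accession-named probe (limma, adjusted p = 5.99e-06), with means of 11.47 and 9.56 in the Tibetan groups TH and TL and 10.87 and 10.76 in the Duroc groups DH and DL. The other PDK1 probe gave 0.54, with means of 7.45 (TH), 5.83 (TL), 7.06 (DH) and 7.59 (DL), so DH lay below DL. At an FDR below 0.05, 5 of the 6 probes were lower and none higher in DH than in DL, where 30.4% and 29.8% of tested probes were. In TH against TL, 4 were higher and 1 lower, where 42.3% and 33.7% of tested probes were. A probe of MXI1, a repressor of the MYC network, was lowest at -0.46 (limma, adjusted p = 3.92e-05), and its other probes gave -0.25 and -0.11. The 6 probes of mitochondrial ribosomal proteins, all named through tables chosen by test results, ran from MRPL17 at -1.003 to MRPL32 at 0.80. Of these 4 were higher and 1 lower, against the same 14.0% and 12.2%.

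Markers of other tissues and cells moved with altitude too. Of 10 skeletal muscle markers, 9 had a probe, and the log2 of their summed level was 13.68 on both TH arrays against 13.13 to 13.17 on the TL arrays, and 13.80 to 13.85 on the DH arrays against 13.05 on the DL arrays, higher at high altitude in both breeds. The group means of 12 of the 16 probes were higher at high altitude in both breeds. ACTA1, skeletal actin, ran the other way in Duroc pigs, at 5.40 (DH) against 7.10 (DL) and 5.36 against 6.68 on its 2 probes, as did TNNC2, a troponin, at 8.16 against 8.42. In Tibetan pigs 1 probe of ACTA1 gave 8.10 (TH) against 8.36 (TL) and 1 of MYH7, a slow myosin, 8.62 against 9.27. CKM, the muscle creatine kinase, was the brightest of the list, 9 of the 16 probes were well above background on all arrays, the MYL1 probe on 2 arrays, and MB had no probe with a symbol. The 4 T cell markers summed to 14.10 and 14.13 (TH), 13.30 and 13.31 (TL), 14.04 and 14.07 (DH) and 13.62 (both DL arrays). The 4 fat markers summed to 13.15 and 13.26 (TH), 12.91 and 12.998 (TL), 12.44 and 12.51 (DH) and 11.87 and 11.95 (DL). Both sums were higher at high altitude in each breed, as were all 6 T cell probes and 5 of 6 fat probes, while LEP, the hormone leptin, was at 8.55 (TH) against 9.38 (TL) and 8.37 (DH) against 8.17 (DL). Among the T cell probes, 1 of CD3G was level in Duroc pigs, at 8.998 (DH) against 8.996 (DL). Only 2 of the 6 fat probes, for FABP4 and LEP, were well above background on all arrays, and FABP4 was the brightest. The smooth muscle sum, over 4 of 5 markers, was lower, at 17.75 and 17.76 (TH) against 17.83 and 17.86 (TL), and at 17.86 (both DH arrays) against 18.11 and 18.14 (DL). Of its 6 probes 3 were lower in both breeds and 1, TAGLN, a smooth muscle actin-binding protein, was higher in both, at 12.60 (TH) against 11.60 (TL) and 12.56 (DH) against 12.10 (DL), and the brightest DES probe was level in Tibetan pigs, at 16.11 in TH and TL. The part of these cells in the altitude effect of the members was not tested.

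Further marker sums followed other patterns. B and plasma cells, by 3 of 6 markers, had a summed log2 level of 15.03 and 15.04 on the TH arrays and of 12.57 to 13.07 on all other arrays. The endothelial sum, over 5 of 6 markers, ran from 18.27 and 18.28 (TH) through 18.47 and 18.48 (TL) and 18.68 (both DH arrays) to 18.77 and 18.78 (DL). Its 11 probes were mixed: 4 were higher in TH than in TL, KDR among them at 10.11 against 9.18. In Duroc pigs 3 were higher in DH than in DL, and 5 of the 11 were lower at high altitude in both breeds. Macrophages, by 3 of 8 markers, summed to 17.87 and 17.89 (TH), 17.995 and 18.03 (TL), 18.55 and 18.58 (DH) and 18.28 and 18.29 (DL). Of the 5 macrophage probes 2 were higher in TH than in TL. APOE was highest in TH, at 13.05 against 12.83 (TL), 12.97 (DH) and 12.725 (DL). HBB and AHSP, 2 of 5 erythroid markers, summed to 14.07 and 14.09 (TH), 14.27 and 14.33 (TL), 13.15 and 13.19 (DH) and 12.92 and 12.95 (DL). Ciliated airway and neutrophil lists had no probe with a symbol. The sums of B cell and T cell markers were lowest in TL, as most members were, those of skeletal muscle, fat and erythroid markers in DL, and those of the other lists in TH.

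Each call at an FDR below 0.0001 rests on 2 arrays per group. With 1 array left out at a time, 2 of the 27 calls over the 5 contrasts, the breed effects of NDUFA5 and NDUFA4L2, stayed past that threshold for every array, and the number of altitude calls fell from 8 to 0 for each of the 8 arrays. NDUFA5 and NDUFA4L2 were named only through tables ordered or chosen by test results on these samples, so their breed calls are no independent evidence. The altitude calls numbered 1 with the raw signal and 24 when arrays were scaled to their 75th percentile. The coefficients moved little, such as from 0.31 to 0.33 for the altitude effect of NDUFB8, and no called coefficient reached an adjusted p above 0.00136 in limma.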

How the data were processed

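RNA of lung was measured in 4 groups, taken from the labels, on 8 Agilent 1-color arrays, 2 per group. The authors extracted spot intensity with Agilent Feature Extraction (version 9.1 per the labels, 10.7.3.1 per the file headers) and deposited log2 values that the methods describe as normalized by RMA. The deposited log2 values had 1 common distribution, with a median of 7.40 on each array, and Spearman's rho of at least 0.999996 with the processed intensity, and their exact steps are unknown. They were used as deposited.

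A model with terms for breed, altitude and their interaction was fitted with limma 3.58.1 in R 4.3.3. It covered the 34406 probes that any array measured well above background. P-values were adjusted by Benjamini-Hochberg over all of them, at an FDR below 0.0001, as in the methods, or below 0.05. Python 3.11.15, numpy 2.4.6, pandas 2.3.3 and matplotlib 3.10.9 were used for summaries and figures. The steps were tested on simulated data. Per the methods each array held the RNA of 1 pig, so replicate spread should include that between pigs, and precision is limited by having 2 arrays a group. Over 48 probes with 5 spots, the median SD between spots of 1 array was 0.057 in log2 processed signal. Between arrays of a group, the median SD of the deposited values was 0.022 for these probes and 0.059 over all tested probes. Spread between pigs was not separated from spot noise. Replicate numbers did not pair the arrays (correlation of deviations from -0.04 to 0.09).

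Symbols came from RefSeq accessions for 24 members and only from tables of the study for 5 (NDUFA5, NDUFS6, NDUFA4L2 and 2 ATP5L probes). The members, gene lists and markers were chosen with earlier results of these data known. Named were the SDH, NDUFA4, COX6B and COX7A members, the probes of highest and lowest coefficient in each complex, and those of each other list. NDUFC1, ATP5J2 and a second COX6C probe fell outside that rule and were added after their values were seen. The table columns that hold the authors' own test results were not used. Alternatives were 3 other normalizations from the deposited intensity (normexp and quantile on the raw signal, local background with an offset of 50, and 75th percentile scaling of the processed signal), other filters on dim probes, an intensity trend in limma, a model without moderated variances, a slide or replicate block, other member sets, and each array left out. The comparison with probes above a log2 value of 13 and the members without 2 dim probes were added after seeing the data. No sequence or genome position of a probe was used here.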

Additional observations from a re-analysis of the deposited data

Results flagged for a closer look

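For 4 members the high minus low difference of the Tibetan pigs differed from that of the Duroc pigs by the interaction term at an FDR below 0.0001 in limma, in 2 arrays per group. The interaction was 0.994 for NDUFA5, 0.826 for NDUFS6 and 0.842 for NDUFA4L2, where TL was the lowest group in each, and -2.86 for the dim ATP5L probe. That probe was well above background in TL only, the group through which it was tested, so its value is no measured difference, and it was -1.88 with the raw signal and -0.17 with local background. The slide and the move at 1 month of age have the same contrast as the interaction and cannot be told apart from it. With each array left out in turn none of the 4 stayed past the threshold, with adjusted p of at most 0.000823, and the interaction ranged from 0.98 to 1.012, from 0.81 to 0.84, from 0.82 to 0.87 and from -3.03 to -2.69.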

How the results depend on the processing

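No breed, altitude or interaction coefficient called at an FDR below 0.0001 changed sign under any alternative run. Of the 8 altitude, 4 breed, 4 interaction, 11 TH minus TL and 0 DH minus DL calls at an FDR below 0.0001, the counts were as follows. With the raw signal, normexp and quantile they were 1 for altitude, 0 for the interaction and 3 for TH minus TL. With 75th percentile scaling they were 24 for altitude, 14 for breed, 22 for the interaction, 26 for TH minus TL and 1 for DH minus DL. With only probes above background on all arrays they were 14 for altitude, 8 for breed, 17 for TH minus TL and 1 for DH minus DL, and without a filter 3 for altitude and 7 for TH minus TL. With an intensity trend they were 17 for altitude, 8 for breed, 18 for TH minus TL and 2 for DH minus DL, and without moderated variances 4 for altitude. At an FDR below 0.05 they were 26 for altitude, 15 for breed, 20 for the interaction, 25 for TH minus TL and 15 for DH minus DL. Members named by accession gave 5 for altitude, 1 for breed and 0 for the interaction, and the brightest probe of each gene gave 5 for altitude and 7 for TH minus TL. The cause of these moves was not tested.

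With the replicate number as a block, although the numbers do not pair the arrays, the counts were 0 for altitude, 3 for breed, 0 for the interaction, 3 for TH minus TL and 0 for DH minus DL. With the slide as a block in place of the interaction, breed and altitude gave 4 and 8 again. With 1 array left out in turn, the lone array being taken to vary like the other groups and 1 residual degree of freedom lost, the counts were 0 for altitude, 2 for breed, 0 for the interaction, 0 to 4 for TH minus TL and 0 for DH minus DL. The medians then ranged from 0.27 to 0.28 for altitude, -0.0052 to 0.0228 for breed, 0.27 to 0.29 for the interaction, 0.37 to 0.41 for TH minus TL and 0.08 to 0.10 for DH minus DL.

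Median coefficients of the members with local background were 0.24 for altitude, 0.25 for the interaction, 0.35 for TH minus TL and 0.0598 for DH minus DL, and TH minus TL was also 0.35 with the raw signal. The 75th percentile scaling gave 0.64, 0.80, 1.04 and 0.21 in that order, and -0.33 for breed. With probes above background on all arrays, or without the 2 dim members (chosen after seeing the data), the breed median was -0.0096 and that of TH minus TL 0.41. Members named by accession gave 0.22 for the interaction, 0.33 for TH minus TL and 0.11 for DH minus DL.

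Coefficients not called at that threshold turned sign as follows. The 75th percentile scaling moved the median of the probes with a mean log2 value above 13 to -0.36 for breed, 0.38 for altitude and 0.63 for the interaction, and the members' values moved with it. Under that scaling the breed effect became -0.23 for NDUFB8, -0.29 and -0.31 for the NDUFV2 probes, -0.30 for SDHB, -0.30 for UQCR10, -0.34 for COX6B, -0.26 and -0.24 for COX6C, -0.30 for COX7A2, -0.27 for COX7C, -0.35 for ATP5J2, -0.28 for the bright ATP5L probe and -0.059 for ATP5O. Altitude became 0.26 for SDHB and 0.35 and 0.40 for NDUFA4, and the interaction 0.62 for NDUFB8, 0.54 for COX7A2 and 0.60 for NDUFA4. The raw signal and local background gave an interaction of -0.0135 and -0.013 for NDUFB6, 0.45 and 0.0117 for COX8H and -0.0225 and -0.0224 for NDUFA4, and breed effects of 0.0386 and 0.0384 for 1 NDUFA4 probe and 0.0245 and 0.0243 for the other. Over the arrays left out, the interaction of NDUFB6 ranged from -0.0107 to 0.0626. For NDUFA4 the breed effects ranged from -0.0564 to 0.0029 and from -0.0218 to 0.0026, and the interactions from -0.004 to 0.11 and from -0.0381 to 0.0107. For COX8H breed ranged from -0.0726 to 1.06, altitude from -0.72 to 0.41 and the interaction from -1.70 to 0.56.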
